A study of Mus musculus with 2 samples.

Results

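The hairpin genes of 5 brain-enriched miRNA families other than miR-124 were followed in cells of J1, an established embryonic stem cell line from 129S4/SvJae mice. The members were Mir9-1, Mir9-2, Mir9-3, Mir128-1, Mir128-2, Mir137, Mir138-1, Mir138-2, Mir219a-1 and Mir219a-2, which are 10 of the 1174 miRNA genes with a Mir symbol in the mouse reference. They were chosen by name, and a read was counted when its whole sequence matched a hairpin exactly in sense. The SC1 cells had received SC1 (pluripotin, a compound that sustains stem cell self-renewal) at 1 µM for 6 h, and the DMSO cells an equal volume of solvent for 6 h. Both were grown on gelatin, without a feeder layer named in the labels, in serum replacement medium with 1000 U/mL LIF. Each condition had 1 library of small RNA from total RNA, so no value has a replicate error and no test was made between conditions.

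The libraries could not be set against each other, because the deposited lists cover different lengths. The SC1 list held 1275599 reads in tags of 3 to 17 nt, and the DMSO list 18870345 reads in tags of 18 to 44 nt. Full-length miRNAs are therefore described from the DMSO list and short fragments from the SC1 list. In the DMSO list, 2177993 reads of 18 to 26 nt matched a miRNA hairpin, and levels are given as RPM, reads in each 1000000 of these. In the SC1 list, 53343 reads of 15 to 17 nt matched a hairpin. Intervals are exact 95% binomial intervals and cover counting error only, since the reads carry no molecular identifiers.

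A miRNA is cut from its hairpin by Drosha and Dicer as a duplex of a 5p and a 3p arm, of which one is usually kept in an Argonaute protein and guides it to mRNAs through its seed, bases 2 to 8. miR-9 is known from neural progenitors, where its 5p arm represses Rest and its 3p arm the Rest partner CoREST. miR-128 is enriched in the brain and restrains neuronal excitability, miR-137 acts in neuronal maturation, miR-138 limits the size of dendritic spines, and miR-219 promotes the differentiation of oligodendrocytes, the myelinating glia.

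The mature sequences on which the results turn are given from 5′ to 3′, with the seed in capitals. They are those of RefSeq (GRCm38.p6), apart from the last, which is the most abundant DMSO tag on the 3p side of Mir219a-2 and is written with T.
miR-9-5p: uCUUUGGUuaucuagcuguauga
miR-9-3p: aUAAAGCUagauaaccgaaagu
miR-128-1-5p: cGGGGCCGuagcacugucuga
miR-128-2-5p: gGGGGCCGaugcacuguaagaga
miR-128-3p: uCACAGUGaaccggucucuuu
miR-137-3p: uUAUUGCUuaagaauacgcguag
miR-138-5p: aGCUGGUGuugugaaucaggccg
miR-219a-5p: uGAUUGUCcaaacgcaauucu
miR-219a-1-3p: aGAGUUGCgucuggacgucccg
Mir219a-2, 3p side: aGAATTGTggctggacatctgt

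Only the 5p arms of both miR-128 copies shared a seed within this set, and no other mature miRNA of the RefSeq table had any of the annotated seeds shown. The 3p arms of miR-219a differed between copies at 7 of 22 positions, so each read of them names its gene. By contrast, miR-9-5p, miR-9-3p, miR-128-3p, miR-138-5p and miR-219a-5p are identical between copies. Of the 19438 DMSO reads of the listed hairpins, 17648 matched more than 1 of them and 1790 (9.21%) matched 1 alone.

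The 10 hairpins held 0.892% of the DMSO hairpin reads (interval 0.880 to 0.905), in 67 distinct tags, and miR-128 accounted for nearly all of it. miR-128 had 18436 reads, 94.8% of the set. miR-219a had 455 reads, miR-9 had 395, miR-138 had 151 and miR-137 had 1. Without miR-128 the set held 1002 reads, 0.0460% of hairpin reads (interval 0.0432 to 0.0489). The cells were sequenced in bulk, so a few cells with much of a miRNA and many cells with little of it cannot be told apart.

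Among the 13 mature arms, 8 had 10 reads or more and 5 had 3 or fewer. Over all mature names, 425 of 1582 had 10 reads or more. miR-128-3p stood at 8460 RPM (interval 8338 to 8582), rank 21 of the 770 mature miRNAs with a read. miR-9-5p followed at 138 RPM (interval 123 to 155), rank 173. The 3p arms of miR-219a came next, miR-219a-1-3p at 95.0 RPM (interval 82.5 to 109) and the 3p arm of Mir219a-2 at 82.6 RPM (interval 71.0 to 95.6). Their intervals overlapped, and that of the second also overlapped miR-138-5p, at 63.4 RPM (interval 53.2 to 74.9). miR-219a-5p at 31.2 RPM (interval 24.2 to 39.6) and miR-9-3p at 30.8 RPM (interval 23.8 to 39.1) had overlapping intervals. With tags at the exact annotated start alone, miR-9-3p was at 8.72 RPM (interval 5.25 to 13.6) and miR-219a-5p at 30.8 RPM. That setting drops the 48 miR-9-3p reads that begin 1 base later, so it gives no order of the arms. miR-128-1-5p had 11 reads, 5.05 RPM (interval 2.52 to 9.04).

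The arms near zero were those of miR-137, the 3p arms of miR-138 and the 5p arm of Mir128-2. miR-137-3p had 1 read, miR-138-1-3p had 2 and miR-138-2-3p had 1. miR-137-5p and miR-128-2-5p had 0 reads, which allows up to 1.38 RPM each at a limit of 3 counts. Reversed tags, a measure of chance sequence matches alone, gave 0 reads on the listed hairpins in either list. They do not measure sequencing errors or reads from other sources, so they do not show that the single reads are genuine.

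**Figure D1:**
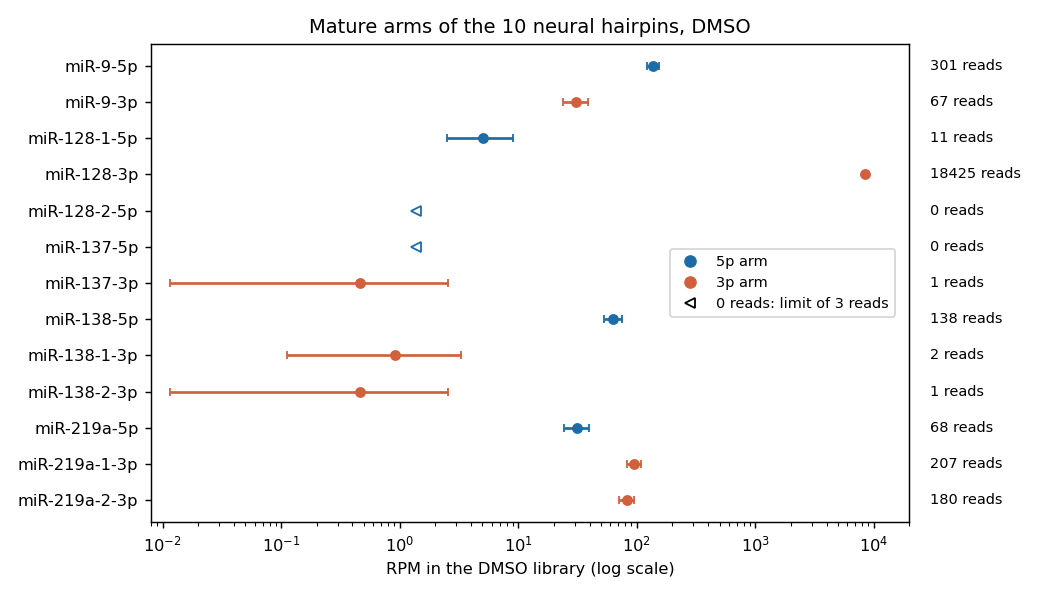
Level of each mature arm in the DMSO library, in RPM on a log axis, with exact 95% binomial intervals of counting error and the read count at the right; open triangles mark the limit of 3 reads for arms with 0 reads. miR-128-3p, at 8460 RPM, lies far to the right of the next arm, miR-9-5p at 138 RPM.

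miR-128 comes from introns of protein-coding genes. Mir128-1 lies at chr1:128202361-128202430 on the plus strand, in an intron of R3hdm1, and Mir128-2 at chr9:112118636-112118711 on the minus strand, in an intron of Arpp21, which encodes a cAMP-regulated phosphoprotein known from striatal neurons. The hairpins are shown to mark where the copies differ beside a shared 3p arm, with the most abundant DMSO tag of each arm in capitals.
Mir128-1: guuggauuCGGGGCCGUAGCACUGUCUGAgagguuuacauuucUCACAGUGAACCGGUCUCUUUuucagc
Mir128-2: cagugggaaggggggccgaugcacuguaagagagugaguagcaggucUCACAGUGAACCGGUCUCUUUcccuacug

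The 3p arm took 99.9% of the miR-128 reads, 18425 against 11 of the 5p arm, or 1675 3p reads per 5p read. All 11 reads of the 5p arm had the sequence of Mir128-1. The 3p arm was one dominant tag, the annotated 21 nt form, with 16509 of 18425 reads (89.6%, interval 89.2 to 90.0). Its start was the annotated base in 99.8% of reads.

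Reads 1 base longer are where the copies part, because the next genomic base is U in Mir128-1 and C in Mir128-2. In the forms below the capital marks the added base.
Fits Mir128-1: tcacagtgaaccggtctctttT
Fits neither copy: tcacagtgaaccggtctctttA
Fits Mir128-2: tcacagtgaaccggtctctttC
The form ending in T had 1265 reads, 57.6% of the 2196 reads with any added base. The form ending in C had 8 reads, and the form ending in A, which neither hairpin encodes, had 910 reads (41.4%). The form ending in G, also encoded by neither, had 13. An untemplated T on either copy gives the same letters as the Mir128-1 form, so its 1265 reads cannot be assigned to that gene. In the same way an untemplated C on Mir128-1 gives the letters of the Mir128-2 form. Its 8 reads were fewer than the 13 of the G form, so they cannot be assigned to Mir128-2. By letters alone, reads that matched only Mir128-1 came to 1330, and those that matched only Mir128-2 to 8.

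miR-9 was present at a low level on both arms. Mir9-1 lies in an intron of the lincRNA gene Gm3764 (chr3:88215598-88215686), Mir9-2 in an exon of the lincRNA gene C130071C03Rik (chr13:83738814-83738885) and Mir9-3 in an intron of Mir9-3hg (chr7:79505264-79505353), all on the plus strand. miR-9-5p had 301 reads and miR-9-3p had 67, so the 5p arm took 81.8% of the reads of both (interval 77.5 to 85.6), 4.49 reads for each 3p read. By distinct tags 6 of 13 (46.2%, interval 19.2 to 74.9) were on the 5p arm, a count that gives no order of the arms. No read separated the copies one by one. Of the 395 reads, 384 matched all of them, and the other reads matched Mir9-1 and Mir9-2 but not Mir9-3.

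The arms of miR-9 differed in where they began. miR-9-5p began at its annotated base in 99.7% of reads. miR-9-3p began 1 base later than the RefSeq entry in 48 of 67 reads (71.6%) and at the annotated base in 19 (28.4%). The later start gives another seed, as the most abundant tags of each kind show, with bases 2 to 8 in capitals.
Later start, 26 reads: tAAAGCTAgataaccgaaagta
Annotated start, 12 reads: aTAAAGCTagataaccgaaagta
No mature miRNA of the RefSeq table had the seed of the later start. None of the listed arms with 10 reads or more other than miR-9-3p had its most frequent start away from the annotated base (the 3p arm of Mir219a-2 has no annotated start here).

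miR-138 was nearly all 5p. Mir138-1 (chr9:122682876-122682974, plus strand) overlaps an exon of the transcribed pseudogene Gm47135, and Mir138-2 (chr8:94324311-94324381, plus strand) an exon of the lincRNA gene C78859. miR-138-5p had 138 reads against 3 on the 3p arms, 97.9% on the 5p side (interval 93.9 to 99.6). The 3p arms, which differ between the copies, had 2 reads for Mir138-1 and 1 for Mir138-2. The 24 nt forms of the 5p arm also differ by their last base, with 7 reads ending in T, which fits Mir138-1, and 3 ending in A, which fits Mir138-2. An untemplated T or A on the other copy gives the same letters, so these reads name no copy, and the 3p reads are too few to order the copies.

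A further 6 reads lay upstream of miR-138-5p in Mir138-1, outside any annotated arm. The tag tagcatggtgttgtgggac, with 5 of them, covers bases 4 to 22 of the hairpin and ends at the base before miR-138-5p begins at base 23. The hairpin is shown because this placement is visible in it, with the most abundant tag of the 5p arm in capitals. On the 3p arm the capitals mark the longer of 2 tags with 1 read each.
Mir138-1: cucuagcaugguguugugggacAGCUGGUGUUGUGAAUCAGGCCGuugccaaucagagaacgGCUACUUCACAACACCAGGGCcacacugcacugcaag

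miR-219a was counted mainly on its 3p arms, in both genes. Mir219a-1 lies at chr17:34024983-34025092 on the minus strand and overlaps an exon of the lincRNA gene Gm26940. Mir219a-2 lies at chr2:29845631-29845727 on the minus strand, where GENCODE has no other gene than miRNA genes. The 3p arms had 387 reads and the 5p arm 68, so the 5p share was 14.9% (interval 11.8 to 18.6), 5.69 reads on the 3p side for each on the 5p side. With only reads that matched a single copy, the 5p share was 12.3% in Mir219a-1 (interval 8.39 to 17.2; 29 of 236 reads) and 8.16% in Mir219a-2 (interval 4.74 to 12.9; 16 of 196 reads). These shares are low by construction, because every 3p read names its copy while 23 of the 68 5p reads match both and were left out. With all 23 given to one copy, the share was 20.1% in Mir219a-1 (52 of 259 reads) or 17.8% in Mir219a-2 (39 of 219 reads). The 3p arms had 207 reads in Mir219a-1 and 180 in Mir219a-2, so both genes gave reads, with overlapping intervals. With the leading tag of each arm alone, levels were taken per 1000000 of the 1209221 reads of such tags. On that scale miR-219a-1-3p was at 133 (interval 113 to 155). The 3p arm of Mir219a-2 was at 84.4 (interval 68.8 to 102.4), and these intervals did not overlap. On the RPM scale used elsewhere the same tags were at 73.9 and 46.8 RPM. The leading tag held 77.8% of the reads of miR-219a-1-3p and 56.7% of those of the other arm. The setting therefore gives no order of the genes.

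The most frequent length of miR-219a-5p was 23 nt, with 42 of 68 reads, against 21 nt in the RefSeq entry. Those reads carry the next bases of the hairpin, which differ between the copies, as the capitals mark in the printed tags.
Mir219a-1, 26 reads: tgattgtccaaacgcaattctCG
Mir219a-2, 16 reads: tgattgtccaaacgcaattctTG
The hairpins show the most abundant tags of each arm in capitals.
Mir219a-1: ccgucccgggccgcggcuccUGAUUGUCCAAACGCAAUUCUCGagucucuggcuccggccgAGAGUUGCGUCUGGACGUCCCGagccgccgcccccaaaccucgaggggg
Mir219a-2: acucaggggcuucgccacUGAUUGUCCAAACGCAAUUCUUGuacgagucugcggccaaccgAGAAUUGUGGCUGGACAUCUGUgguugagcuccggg

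**Figure D2:**
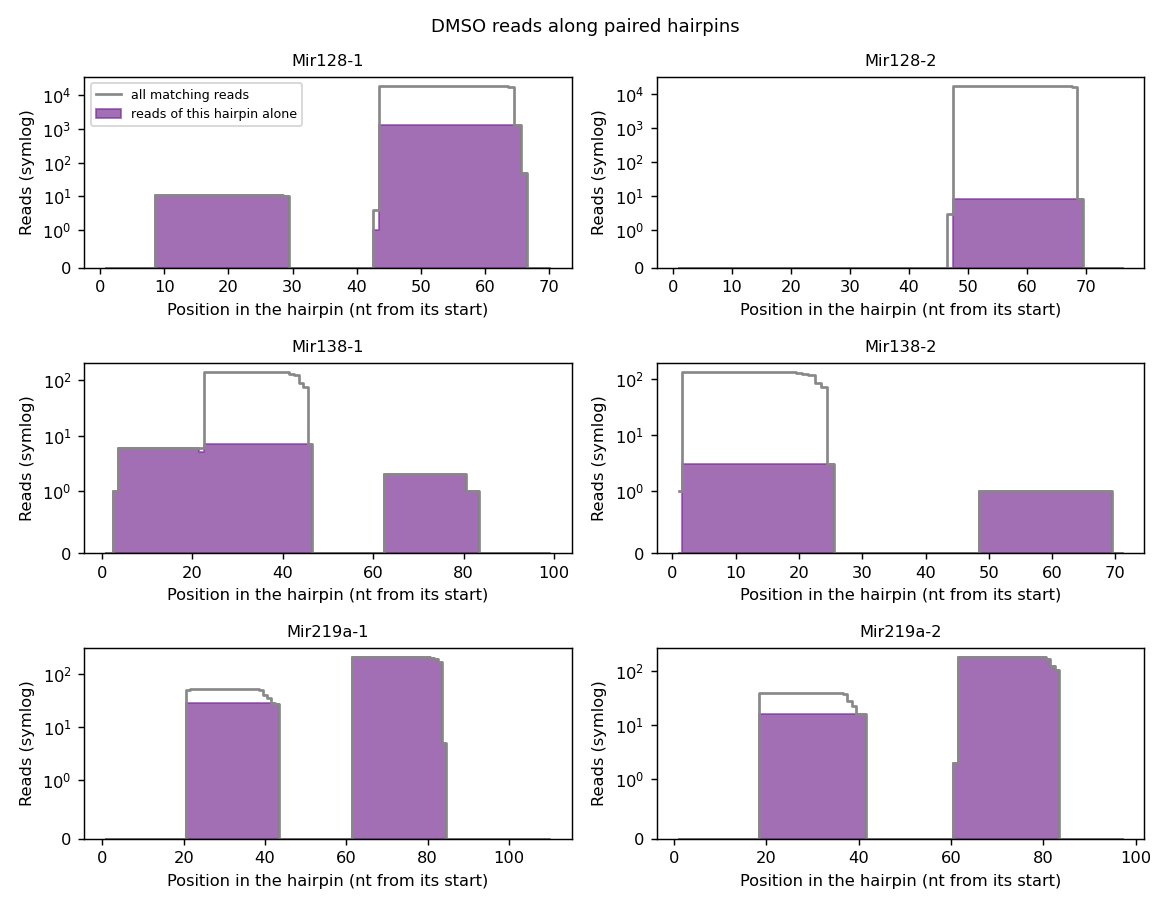
DMSO reads at each position of 6 hairpins, counted from the hairpin's first base, on an axis that is linear below 1 and logarithmic above; the grey line gives all matching reads and the filled area reads that matched that hairpin alone. Reads of Mir128-2 alone reach 8, those of Mir219a-1 and Mir219a-2 alone form both arms, and Mir138-1 has 6 reads before its 5p arm.

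**Figure D3:**
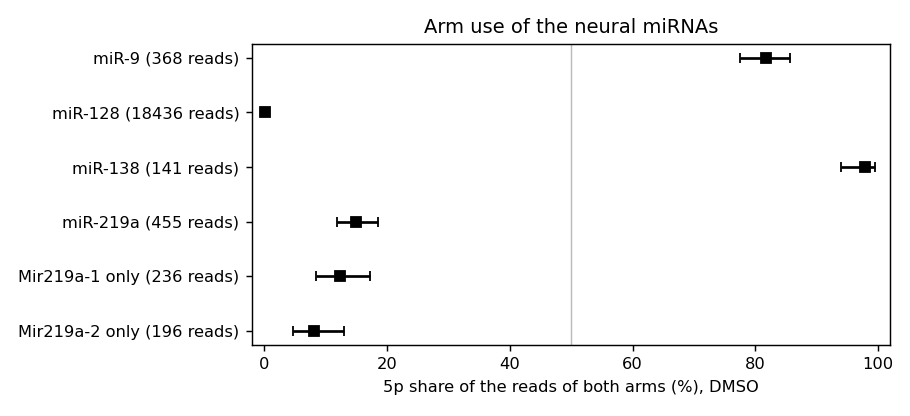
Share of the 5p arm in the DMSO reads of both arms, with exact 95% binomial intervals, for 4 families and for reads that matched 1 copy of miR-219a alone, which leaves out 23 5p reads that match both. miR-9 (81.8%) and miR-138 (97.9%) lie on the 5p side of the line at 50%, and miR-128 and miR-219a (14.9%) on the 3p side.

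miR-137 was close to absent. Mir137 lies at chr3:118433857-118433929 on the plus strand, in an exon of the noncoding gene Gm26871. Its 1 DMSO read was a 22 nt tag that starts 2 bases after the annotated start of miR-137-3p, 0.459 RPM (interval 0.0116 to 2.56). The SC1 list had 0 reads of this hairpin, which at a limit of 3 counts allows up to 56.2 per 1000000 of that list's hairpin reads.

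Lengths were compared over all tags of 18 to 26 nt with the start of an arm, which adds 27 reads of 18 nt to miR-9-5p and 4 to miR-138-5p. miR-128-3p was the most uniform of the listed arms with 100 reads or more, with 89.6% of reads at 21 nt. The median share at the most frequent length was 62.1% over 242 other mature miRNAs with 100 reads or more (quartiles 46.9 and 78.2). miR-219a-1-3p had 77.8% at 22 nt and the 3p arm of Mir219a-2 56.7% at 22 nt. In the 3p arm of Mir219a-2 a further 24.4% were 20 nt. miR-9-5p had 48.8% at 23 nt and 31.4% at 22 nt, and miR-138-5p had 47.9% at 23 nt and 23.2% at 21 nt. By summed difference of length shares, the nearest to miR-128-3p among 105 other miRNAs with 1000 reads or more was miR-152-3p, 5.02 percentage points apart, followed by miR-1983 at 12.1 and miR-296-5p at 13.4. This is a description of 1 library.

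**Figure D4:**
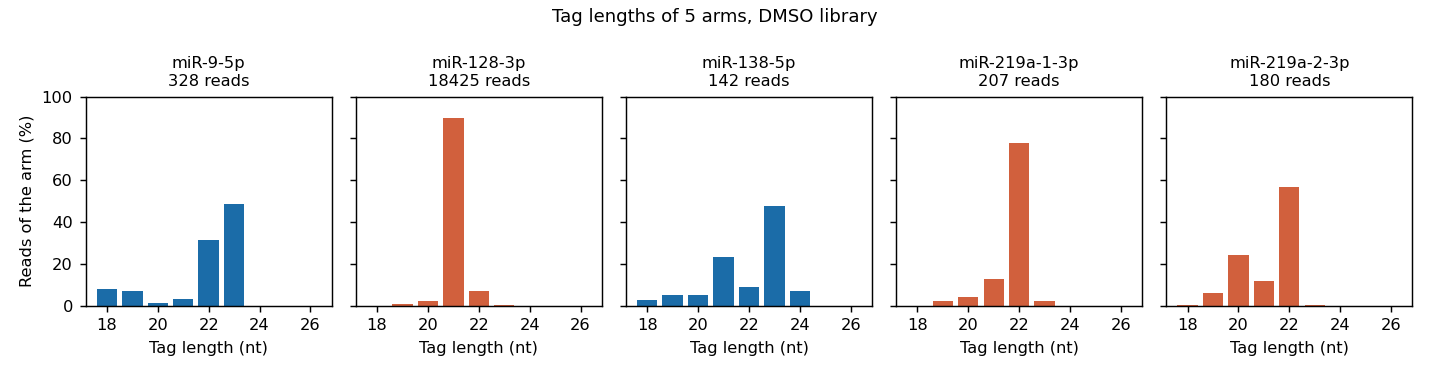
Share of the reads of 5 arms at each tag length from 18 to 26 nt in the DMSO library, with the number of reads above each panel. miR-128-3p is almost a single bar at 21 nt (89.6%), whereas miR-9-5p and miR-138-5p have their highest bar at 23 nt and further bars from 18 to 22 nt.

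Tags with 1 or 2 untemplated A or T at the 3′ end matched no hairpin as a whole and are not in the levels, arm shares and lengths given above. They include the 910 reads of miR-128-3p with a single added A. They made up 6.53% of the miR-128-3p reads counted with them (1287 reads), and 1091 of these carried a single A. The median over the 242 other miRNAs was 6.19% (quartiles 2.98 and 13.5). The share was 4.93% for miR-9-5p, 7.79% for miR-138-5p, 6.33% for miR-219a-1-3p and 3.74% for the 3p arm of Mir219a-2, and none of the 5 arms lay outside these quartiles. In miR-138-5p the added base was mostly A (11 of 12 reads), and in miR-219a-1-3p mostly T (11 of 14). An added base that a hairpin encodes was counted as a match and not as a tail, so the mix of A and T is skewed. At the annotated end this left out T (7 reads) and A (3) on miR-138-5p and A (5) on miR-219a-1-3p. On miR-128-3p it left out T (1265).

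The SC1 list held 32 reads of 15 to 17 nt from the listed hairpins, 0.0600% of its hairpin reads of these lengths (interval 0.0410 to 0.0847). miR-128-3p had 16 of them and miR-9-5p had 14. miR-138-5p and miR-219a-5p had 1 each. Of the 32 reads, 31 began at the first base of the mature miRNA, as in the 17 nt tags shown.
miR-9-5p, 10 reads: tctttggttatctagct
miR-128-3p, 9 reads: tcacagtgaaccggtct
The 3p arms of miR-9, miR-138 and miR-219a had 0 SC1 reads, which allows up to 56.2 per 1000000 hairpin reads of that list for each. The DMSO list had 27 reads of 18 nt that began at the first base of miR-9-5p and 19 at that of miR-128-3p. Length and treatment differ together between the lists and cannot be told apart, so neither a response to SC1 nor its absence can be read from these counts.

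**Figure D5:**
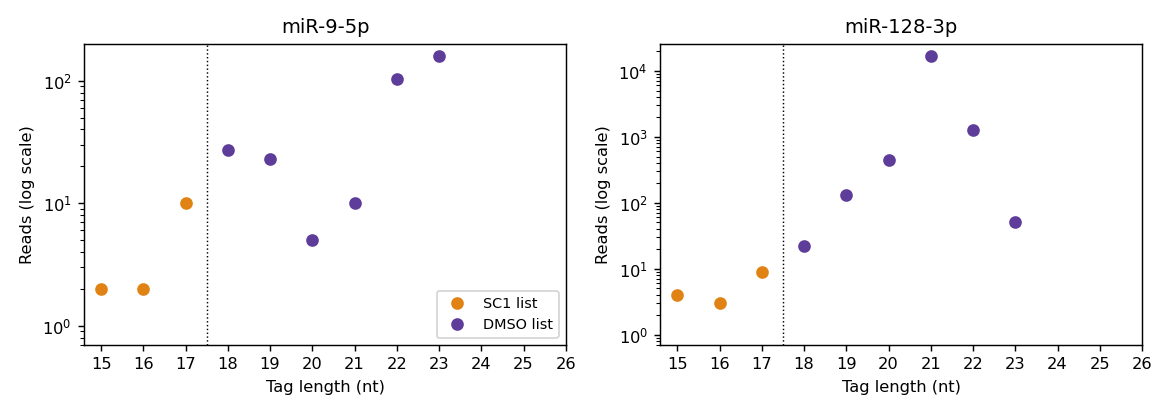
Reads of miR-9-5p and miR-128-3p by tag length, on a log axis, with lengths of 0 reads left out; the dotted line separates the SC1 list (15 to 17 nt) from the DMSO list (18 nt and longer). miR-128-3p has 9 reads at 17 nt in the SC1 list and reaches 16510 at 21 nt in the DMSO list.

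Other neural miRNAs were read from a separate list, of which 19 of 21 symbols were in the reference. Their hairpins held 25 SC1 reads, 0.0469% of that list's hairpin reads, and 12339 DMSO reads, 0.567%. In the DMSO list 17 of the 19 genes had reads, with reads that match several hairpins split equally between them. Counted by mature name and not by gene, 770 of 1582 had a read over the whole RefSeq table. miR-124, the main miRNA of neurons, was at 2230 RPM, miR-134 at 1446 RPM and miR-7 at 1326 RPM, all below miR-128. Mir153 and Mir384 had 0 DMSO reads, and Mir338, which with miR-219 marks oligodendrocytes, had 1. Stem cell miRNAs, the clusters of miR-290 and miR-302, took 50.5% of the SC1 and 28.9% of the DMSO hairpin reads. In the SC1 list 26618 of their 26914 reads were from Mir293 and 0 from the listed miR-302 and miR-367 genes. In the DMSO list the miR-302 and miR-367 genes had from 1 to 197 reads each of 629537, so nearly all were from the miR-290 cluster. Fibroblast miRNAs took 0.0750% of the SC1 and 0.154% of the DMSO hairpin reads. Of their 3361 DMSO reads, Mir143 had 2061 (946 RPM) and Mir145a had 136 (62.4 RPM). Mir199a-1 and Mir199a-2 were given 582 DMSO reads each, where reads shared between copies are split equally, and Mir214 had 0. Because the lists hold other tag lengths, these shares are not compared between them. The part of other cell types in the neural values was not tested.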

How the data were processed

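Per the labels' protocols, total RNA was extracted with TRIZOL and sequenced from standard Illumina libraries. The authors deposited for each library a list of distinct tags with raw read counts, not normalized. Per the submitters' processing notes, the genome build was mm9. For trimming, length filter and aligner, the tool is not given in the sources used. The DMSO list closes with a total, which was left out.

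Tags of 18 to 26 nt (DMSO) and 15 to 17 nt (SC1) were matched exactly to the 1174 GENCODE M21 hairpins, all on GRCm38 coordinates, not mm9. The 10 listed hairpins are identical in RefSeq, whose mature sequences set the arms: a tag started within 2 nt and ended within 4 nt of the mature ends. The 3p arm of Mir219a-2 was set by its most abundant tag. Ranks count the mature miRNAs of RefSeq hairpins, with tags that fitted several names split equally. SC1 tags were assigned by their start alone. Host genes are GENCODE genes on the same strand. Intervals are Clopper-Pearson, and 0 reads allow up to 3 counts. The total of each list is that of a length class, not a library depth.

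The members, lists and named miRNAs (every listed arm, sums and some members of each compared list, and the 3 arms nearest in length) were chosen with earlier results of these data known. The plan was to name up to 3 members of each compared list, and more were named. The assignment was tested on simulated data. Alternatives were other minimum counts, length windows, scales, starts and ends, removal of untemplated A or T, arms by the hairpin midpoint, the most abundant tags alone and distinct tags. The work ran on scipy 1.17.1 and numpy 2.4.6 under Python 3.11.15, with plots from matplotlib 3.10.9.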

Additional observations from a re-analysis of the deposited data

Results flagged for a closer look

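Reads from the strand opposite to the listed hairpins came to 1 in the SC1 list and 37 in the DMSO list, in 7 DMSO tags. They lie outside the counts above and were singled out because the DMSO number exceeds the limit of 3 that a count of 0 allows. They were found opposite Mir219a-1 and Mir219a-2, where GENCODE has Mir219c and Mir219b on the other strand. In the DMSO list 21 reads were opposite Mir219a-1 alone, 10 opposite Mir219a-2 alone and 6 fitted both. The most abundant were ggacgtccagacgcaactctcg, a Mir219c tag with 19 reads, and aagaattgcgtttggacaatca, a Mir219b tag with 6.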

How the results depend on the processing

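No paired analysis was possible because the conditions have 1 library apiece. Values below lie outside the main value's own interval, and the cause was not tested unless the setting itself gives it. The alternative's interval still held the main value for the hairpin share by distinct tags (0.790 to 1.29), miR-9 with the most abundant tags (80.2 to 90.7) and miR-138 over tags of at least 2 or 10 reads (from 97.3 and 96.8). The DMSO share of the listed hairpins (0.892%) was 0.937% with tags of 20 to 24 nt and 0.866% with untemplated A or T removed. It was 1.41% with a single tag per arm, the most abundant, out of the 1209221 reads of such tags. By distinct tags it was 1.02%, and of all reads of the list 0.103%, where only the scale changes. The 5p share of miR-9 (81.8%) was 86.0% with only the most abundant tags and 46.2% by distinct tags (interval 19.2 to 74.9). That of miR-128 (0.0597%) was 11.8% by distinct tags. That of miR-138 (97.9%) was 100% over tags of at least 2 or 10 reads, which leave no 3p tag, and 75.0% by distinct tags. That of miR-219a (14.9%) was 10.3% over tags of at least 10 reads, 9.0% with only the most abundant tags and 40.0% by distinct tags. Reads that match both copies of miR-219a, all given to one copy (chosen after seeing the data), took the 5p share to 20.1% in Mir219a-1 and 17.8% in Mir219a-2. The SC1 share (0.0600%) became 0.0193% over tags of 10 reads or more, 0.144% among 17 nt tags and 1.15% by distinct tags. With the exact annotated start miR-9-3p (30.8 RPM) was at 8.72 RPM, and over tags of at least 10 reads miR-219a-5p (31.2 RPM) was at 19.4 RPM. Of 130 values of single arms under the alternatives, 37 moved, 13 up and 24 down, 11 of them by distinct tags and 9 by the scale of all reads. Assigning arms by any tag end, an alternative chosen after seeing the data, moved 0 of 13 arms. No tag of the listed hairpins matched a hairpin outside the list, so leaving out shared tags changed nothing. Arms with 3 reads or fewer are limited by depth, and neither their order nor their absence can be read.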

Other observations

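A few miR-128-3p reads began 1 base early in the DMSO list. They were 4 of 18425 reads (0.0217%), and bases 2 to 8 of these tags equal the seed of miR-27a-3p and miR-27b-3p. No DMSO read of 27 nt or more matched a listed hairpin (0 of 2255913 reads of 27 to 44 nt), while 2923 such reads matched a hairpin of any miRNA gene.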
